A study of Homo sapiens with 8 samples.

Results

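The basal transcriptomes of 2 cell lines were compared: cells expressing Smad3(RA/KP) without TGF-β, and cells expressing wild-type Smad3 without TGF-β. The 4 libraries, replicates 1 and 2 of each line, were chosen by their sample titles, out of 8 libraries in the series. Both lines derive from A549-S3KO, a clone of the human lung adenocarcinoma line A549 in which SMAD3 was disrupted with a double nickase plasmid, and both received a Smad3 cDNA by lentivirus. One cDNA was wild-type and the other carried R104K and A105P, substitutions that lie in the DNA-binding MH1 domain, in its β4 region, with positions being counted from the first methionine. The cells were trypsinized and seeded on plates coated with collagen, and those of the other 4 libraries (2 per line) received TGF-β at 1 ng/ml for 8 h.

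Several properties limit the 2 groups as a model of the mutation. Infected cells of both kinds were cloned by limiting dilution, and the wild-type clone was taken for its low Smad3 expression. The sequenced Smad3(RA/KP) clone is not identified in the methods read here. A difference between the clones and an effect of the substitutions therefore cannot be told apart. The labels do not say that replicates 1 and 2 came from separate cultures, whereas the study describes independent experiments, so the p-values measure the spread between these libraries, which may be partly technical. Fewer cells of one state and less RNA per cell cannot be told apart in such bulk libraries.

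Smad3 is a receptor-regulated Smad. Ligand-bound type I TGF-β receptors phosphorylate its C terminus, after which it joins Smad4, enters the nucleus and regulates transcription, binding DNA through a β-hairpin of its MH1 domain. Without added ligand, most Smad3 is unphosphorylated, although ligand made by the cells or present in serum can activate some of it. The untreated comparison thus addresses how the lines differed at the start, before the response to TGF-β was measured.

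The site of the substitutions is shown because it is what the 2 introduced cDNAs were designed to differ in. In the reference genome, the codons of R104 and A105 lie in exon 2 of SMAD3 (transcript ENST00000327367.9, plus strand), at chr15:67164998-67165003 of GRCh38. The coding stretch around them, codons 94 to 115 of 425, is at chr15:67164968-67165033. The capitals mark the 2 codons in the wild-type form, and the mutant bases are not printed, since no file used here holds them.
SMAD3 codons 94 to 115: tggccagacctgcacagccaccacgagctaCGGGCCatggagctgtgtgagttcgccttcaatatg

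Expression was measured by sequencing of poly(A) RNA. The unit is TPM, in which values are divided by length and scaled to the same total in every library, and records of the same gene name were summed. Depth, recovered from the ratio of base coverage to FPKM, was 1.15 and 1.42 Gb of mapped bases in wild-type cells and 1.27 and 1.41 Gb in Smad3(RA/KP) cells. A difference is the mean log2(TPM + 1) of Smad3(RA/KP) minus that of wild-type, n = 2 per group throughout, and it understates the change of genes with low TPM. It was tested with limma over the 13141 genes whose mean over the 8 libraries reached 1 TPM, at a Benjamini-Hochberg adjusted p of 0.05. The spread was estimated over all 4 groups. Taken alone, an exact two-sided permutation of 2 against 2 libraries cannot go below p = 0.333.

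The epithelial identity of the cells was checked against 11 genes. Of the 11, 10 exceeded 1 TPM in all 4 untreated libraries, EPCAM being the lowest of these at 3.05 to 3.95 TPM. The keratins KRT7, KRT8 and KRT18 ranged from 2965 to 6634 TPM, and AKR1B10, AKR1C1, ALDH1A1 and ALDH3A1, enzymes that A549 expresses highly, ranged from 782 to 3216 TPM. KRT19 was listed at 0 in every library, and such an exact 0 can be a failed estimate, which the tables do not tell from absence. The summed level ranged from 18480 to 23550 TPM in wild-type cells and from 18270 to 24520 TPM in Smad3(RA/KP) cells. Of 32 markers of other cell types, 20 were listed at 0 in all 4 libraries, among them PTPRC of leukocytes, PECAM1 of endothelium and PDGFRA of fibroblasts. Their sum was 94.5 to 109.3 TPM in wild-type and 93.3 to 97.7 TPM in Smad3(RA/KP) cells, most of it CD68, a lysosomal protein, at 51.0 to 73.1 TPM. With CD68, 6 of the 32 exceeded 1 TPM in all 4 libraries. The neuronal marker SNAP25, at 12.4 to 17.1 TPM, and the myeloid marker CD14, at 5.96 to 13.5 TPM, were above EPCAM. The neuronal SYP and RBFOX3 and the myeloid ITGAM lay between 1.54 and 5.52 TPM.

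One library stood apart. Smad3(RA/KP) replicate 2 differed from replicate 1 of its own line with an SD across genes of 0.62 (log2), whereas the wild-type replicates differed by 0.46. The differences between the lines, library by library, had SDs of 0.41 to 0.54. The replicates of Smad3(RA/KP) thus lay further apart than any wild-type library lay from either of them. The difference between the Smad3(RA/KP) replicates followed the GC content of the transcripts (Spearman's correlation -0.585 over 12388 genes, a description across genes that share the libraries). Against wild-type replicates 1 and 2, this correlation was 0.349 and 0.160 for Smad3(RA/KP) replicate 1, and -0.477 and -0.635 for replicate 2. The fitted line difference followed GC content with a Spearman's correlation of -0.376 without TGF-β and 0.542 with it. Values without replicate 2 or after removal of the GC trend from each library are given below where the results rest on them.

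The GC-poorest group of 2478 genes had a median fitted difference of 0.15 and the GC-richest group -0.06, and with the GC trend removed these were 0.04 and 0.03. The same dependence was visible along the chromosomes. Over the 22 autosomes and the X chromosome, the median difference ran from -0.05 on chromosome 19, with a median GC content of 59.6%, to 0.12 on chromosome 4, with 42.4%. Across the 23 chromosomes the medians followed GC content with a Spearman's correlation of -0.843. After GC removal they lay between 0.01 and 0.06. Chromosome 15, which carries SMAD3, had a median of 0.03, or 0.02 after GC removal.

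SMAD3 itself was at 158 and 187 TPM in wild-type cells and at 144 and 180 TPM in Smad3(RA/KP) cells. The groups overlapped, and the difference was -0.09 ± 0.19 (SE), with a 95% interval of -0.53 to 0.35. With TGF-β it was 0.16, from 137 and 166 TPM to 168 and 169 TPM. The interval allows SMAD3 RNA in Smad3(RA/KP) cells to be lower or higher by less than 2-fold. The gene record does not separate the introduced cDNA from transcripts of the disrupted locus, and it says nothing of protein. SMAD2, the closest relative of Smad3, was at 5.60 and 6.12 TPM in wild-type and at 11.3 and 9.30 TPM in Smad3(RA/KP) cells, groups that did not overlap. Its difference was 0.71 ± 0.39 and did not pass (adjusted p = 1). With TGF-β the SMAD2 difference was -0.54, at 3.85 and 11.5 TPM against 4.65 and 4.07 TPM, groups that overlapped.

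Of the 13141 genes, 1 passed the threshold (0.00761%), and it was lower in Smad3(RA/KP) cells. At an unadjusted p under 0.05 there were 203 genes (1.54%), 124 higher (0.944%) and 79 lower (0.601%). That count rested on the Smad3(RA/KP) libraries: it was 1576 without replicate 1 and 430 without replicate 2. Groups did not overlap for 2483 genes (18.9%), 1329 higher (10.1%) and 1154 lower (8.78%). The shares of 1.54% and 18.9% lie below those that would arise with no line difference, 0.05 and 0.333 of genes. Neither measure by itself therefore shows that a gene differed. The median difference of all genes was 0.03, with quartiles of -0.10 and 0.17. Differences beyond 1 in size (2-fold in TPM + 1) were seen for 187 genes, of which 48 had a mean TPM of at least 5 in the untreated libraries. Among the 9518 genes at that level, the median SE was 0.244 and the 95% interval of 86.7% lay within -1 and 1. A 2-fold difference in TPM + 1 could thus be set aside for most of the well-expressed genes, whereas smaller differences could not. A p that missed the threshold does not show that a gene was at the same level in both lines.

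The gene that passed was SEPT5, a septin of the cytoskeleton (chr22:19714464-19723322, plus strand). It was at 12.1 and 14.6 TPM in wild-type cells and was listed at 0 in both Smad3(RA/KP) libraries, a difference of -3.84 ± 0.36 (adjusted p = 0.0353). With TGF-β it was at 8.00 and 18.8 TPM in wild-type and at 12.1 and 16.9 TPM in Smad3(RA/KP) cells, which overlapped. The record SEPT5-GP1BB, a readthrough of SEPT5 into the neighbouring platelet glycoprotein gene GP1BB, overlaps SEPT5 on the same strand and went the other way. SEPT5-GP1BB was at 1.30 and 2.93 TPM in wild-type and at 7.36 and 6.92 TPM in Smad3(RA/KP) cells. The sum of both was 13.4 and 17.5 TPM against 7.36 and 6.92 TPM, a difference of -1.01 that did not pass (adjusted p = 1). The part that the allocation of reads between the overlapping records had in the 0 values was not tested.

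MSH5, a MutS homologue that acts in meiotic recombination (chr6:31739948-31762678, plus strand), had the same pattern. It was at 13.1 and 14.8 TPM in wild-type and at 2.68 and 3.72 TPM in Smad3(RA/KP) cells, a difference of -1.84 ± 0.24 (adjusted p = 0.1004). Its readthrough MSH5-SAPCD1 was at 6.97 and 5.60 TPM in wild-type and at 13.02 and 13.16 TPM in Smad3(RA/KP) cells. The sum of these records differed by -0.30, with 20.1 and 20.4 TPM against 15.7 and 16.9 TPM. With TGF-β, MSH5 was the higher in Smad3(RA/KP) cells, at 13.87 and 10.96 TPM against 6.82 and 7.33 TPM. Another readthrough, TRIM6-TRIM34, joins 2 genes of the TRIM family of ubiquitin ligases. TRIM6-TRIM34 was at 0 and 0.192 TPM in wild-type and at 3.42 and 6.03 TPM in Smad3(RA/KP) cells, while the sum of TRIM6, TRIM34 and TRIM6-TRIM34 was 15.1 and 11.2 TPM against 13.6 and 13.9 TPM. MSH5 and the TRIM records were chosen after their values were seen.

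SPARC, also called osteonectin, is a secreted glycoprotein that binds collagen (chr5:151661096-151687054, minus strand). It was at 128 and 131 TPM in wild-type cells and at 35.1 and 23.5 TPM in Smad3(RA/KP) cells, 4.42-fold lower by the means. No other record overlapped it on its strand. The difference was -2.13 ± 0.26, with a 95% interval of -2.73 to -1.54 (adjusted p = 0.1004), so it did not pass in the untreated comparison alone. In the TGF-β-treated libraries, which the untreated comparison does not use, SPARC was at 228 and 232 TPM in wild-type and at 44.98 and 27.70 TPM in Smad3(RA/KP) cells, a difference of -2.67 that passed (adjusted p = 0.0491). Among the genes tested, SPARC was the one that passed in the treated libraries (0.00761%). No gene passed there with the GC trend removed, FPKM, median-ratio scaling, quantile normalization, no filter on low values or no variance trend. The fit shares 1 estimate of the spread between these comparisons, so they are not fully independent. The mean of both line differences, an alternative added after the data were seen, was -2.40 for SPARC (adjusted p = 0.00666). The untreated difference was -2.15 with the GC trend removed and -1.85 without Smad3(RA/KP) replicate 2, with adjusted p of 0.120 and 0.345. With the replicate number as a block it passed (adjusted p = 0.0268). The difference of the line differences did not pass (adjusted p = 0.987), and all 4 Smad3(RA/KP) libraries were below all 4 wild-type libraries.

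PYCARD encodes ASC, the adaptor that joins inflammasome sensors to caspase-1 (chr16:31201486-31202776, minus strand). It was at 15.1 and 22.4 TPM in wild-type and at 4.68 and 6.97 TPM in Smad3(RA/KP) cells, 3.22-fold lower by the means. With TGF-β it was at 11.89 and 22.19 TPM and at 6.24 and 8.46 TPM, again without overlap. The untreated difference of -1.53 ± 0.34 had a 95% interval of -2.30 to -0.75 and did not pass (adjusted p = 1). It was -1.77 without Smad3(RA/KP) replicate 2 and -1.43 with the GC trend removed.

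The treated libraries measured the same lines again. Across all genes, the untreated and treated line differences had a Pearson correlation of -0.03, and 43.9% of genes had the same sign in both. Both sets of differences followed GC content, in opposite directions as given above. Of the 203 genes at an unadjusted p under 0.05 without TGF-β, 109 (53.7%) had the same sign with TGF-β. The difference of the line differences passed for 2 genes (0.0152%), both noncoding records at no more than 6.14 TPM in any library. At an unadjusted p under 0.05 in both, 29 genes had the same direction and 12 the opposite one. With TGF-β, 4.37% of genes had an unadjusted p under 0.05. Groups that did not overlap, in the same direction in both conditions, were found for 451 genes (3.43%), of which 291 were higher (2.21%) and 160 lower (1.22%).

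**Figure D1:**
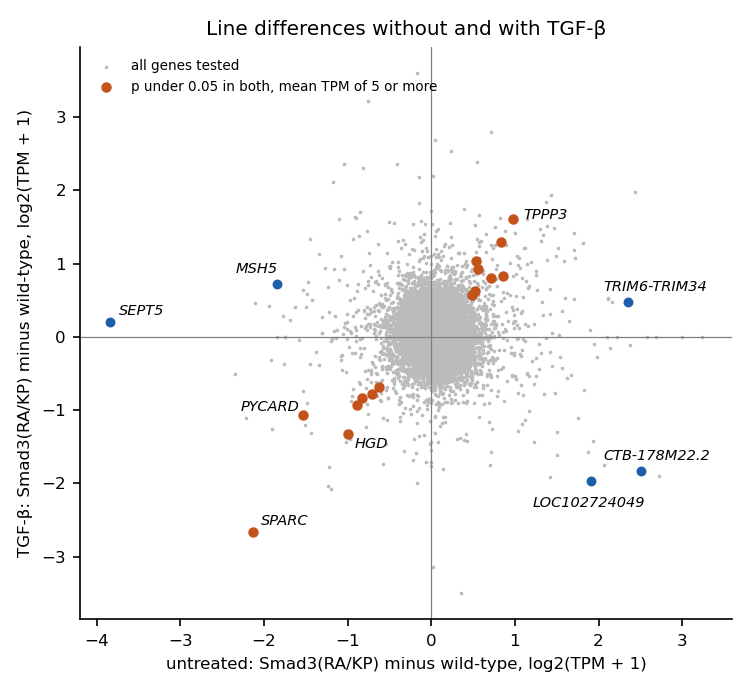
Difference between Smad3(RA/KP) and wild-type cells in log2(TPM + 1) for each gene, without TGF-β (x axis) and with TGF-β (y axis). Grey points are all 13141 genes tested, orange points the 15 genes with an unadjusted p under 0.05 in the same direction in both and a mean of at least 5 TPM, and blue points the records described apart. SPARC lies at -2.13 and -2.67.

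Of these 29 genes, 15 had a mean of at least 5 TPM in the untreated libraries, 8 with the higher level in Smad3(RA/KP) cells and 7 with the lower. They were chosen by their p-values in both comparisons, so that the lack of overlap between the groups, which held for all 15 in both conditions, was largely fixed by that choice. Apart from SPARC in the treated libraries, none passed the adjusted threshold in either comparison. The named genes of this group fell outside the rule for named genes, unless they belonged to a gene list, and were chosen after their values were seen.

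Besides SPARC and PYCARD, the genes at lower levels in Smad3(RA/KP) cells had various functions. GREM1, a secreted antagonist of BMPs, was at 22.1 and 20.6 TPM in wild-type and at 9.65 and 16.7 TPM in Smad3(RA/KP) cells. The death receptor FAS was at 8.23 and 7.11 TPM against 4.14 and 5.09 TPM. TBX18, a T-box transcription factor, was at 17.1 and 8.88 TPM against 6.53 and 5.93 TPM. DMKN, a secreted protein of epithelia, was at 31.3 and 19.5 TPM against 15.02 and 12.23 TPM, and HGD, an enzyme of tyrosine breakdown, at 7.36 and 10.2 TPM against 4.49 and 3.27 TPM. These 5 differences ran from -0.63 for FAS to -0.997 for HGD without TGF-β, and from -0.69 to -1.32 for the same genes with it.

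The other 8 genes were at higher levels in Smad3(RA/KP) cells. PORCN, the acyltransferase that lipidates WNT proteins, was at 26.36 and 26.98 TPM in wild-type and at 41.2 and 38.6 TPM in Smad3(RA/KP) cells. Its replicates lay close together in each line, and its difference was 0.56 ± 0.19, against 0.92 with TGF-β. APOE, the lipoprotein component, was at 5.46 and 4.23 TPM against 9.44 and 9.66 TPM. STAT6, which transmits interleukin-4 signals, was at 35.65 and 44.04 TPM against 53.4 and 61.5 TPM. RRAD, a small GTPase, was at 6.084 and 6.496 TPM against 13.1 and 10.9 TPM, and MEGF6, a protein with EGF repeats, at 23.1 and 25.8 TPM against 37.6 and 34.2 TPM. The RNA-binding protein gene MSI2 was at 12.1 and 11.5 TPM against 18.5 and 15.5 TPM. TPPP3, which binds tubulin, was at 18.79 and 14.98 TPM against 53.9 and 21.4 TPM, so that Smad3(RA/KP) replicate 1 was far above replicate 2. The remaining member was the noncoding record LOC101928451, at 2.90 and 4.87 TPM against 5.84 and 7.94 TPM. With the GC trend removed these 8 differences ran from 0.53 for MSI2 to 1.07 for TPPP3. LOC101928451 has no known GC content, so the removal could not change its difference.

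**Figure D2:**
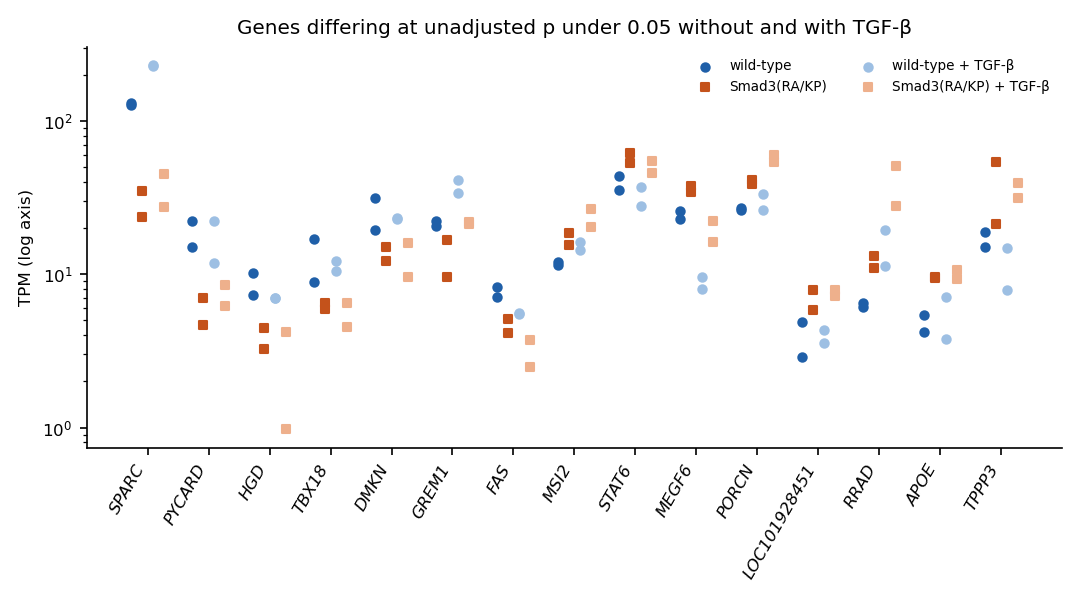
TPM on a log axis (y) of the 15 genes with an unadjusted p under 0.05 in the same direction without and with TGF-β (x axis, ordered by the untreated difference), with 1 point per library, circles for wild-type, squares for Smad3(RA/KP) and pale symbols for TGF-β. SPARC is at 128 and 131 TPM in untreated wild-type and at 35.1 and 23.5 TPM in untreated Smad3(RA/KP) cells.

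Genes were also ranked by their p in the untreated comparison alone. Among the 30 genes with the smallest p at a mean of at least 5 TPM, 24 kept an unadjusted p under 0.05 and their direction when overlapping records were summed, 11 higher and 13 lower. None of the 24 passed after that summation. They include SEPT5, SPARC, PYCARD, APOE, PORCN and TBX18, described above. All 24 kept their direction with the GC trend removed, and 12 had the same direction with TGF-β. One of the 24, LOC100506282, has no known GC content, so the removal could not change it. The untreated groups did not overlap for any of the 24, so leaving out Smad3(RA/KP) replicate 2 could not reverse a direction. CISD2, an iron-sulphur protein of the endoplasmic reticulum and mitochondria, was at 27.1 and 30.1 TPM in wild-type and at 10.5 and 17.0 TPM in Smad3(RA/KP) cells, but with TGF-β at 9.55 and 9.44 TPM against 11.2 and 10.7 TPM. KIAA1549 was at 9.77 and 9.91 TPM against 4.94 and 4.69 TPM. ALG1, a mannosyltransferase of N-glycan synthesis, was at 29.01 and 23.01 TPM in wild-type and at 45.8 and 39.8 TPM in Smad3(RA/KP) cells, and TUSC3, a subunit of the oligosaccharyltransferase, at 21.9 and 15.8 TPM against 27.6 and 34.0 TPM. With TGF-β the values for ALG1 were 22.87 and 22.19 TPM against 21.0 and 20.5 TPM. The difference of the line differences did not pass for CISD2, ALG1 or TUSC3 (adjusted p = 0.987 for each).

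Among the same 24 were 2 SNARE proteins of membrane fusion. STX2 was at 13.7 and 14.4 TPM in wild-type and at 21.7 and 23.5 TPM in Smad3(RA/KP) cells, and VAMP8 at 3.77 and 3.35 TPM against 8.30 and 10.3 TPM. The signalling genes RGS2, a regulator of G protein signalling, and VIPR1, a receptor for vasoactive intestinal peptide, were at 40.8 and 28.7 TPM against 65.4 and 63.1 TPM and at 9.67 and 9.54 TPM against 17.2 and 19.5 TPM. The retinoid-induced gene RARRES3 was at 10.3 and 6.87 TPM against 23.1 and 13.5 TPM. On the lower side, SEC14L2, a lipid-binding protein, was at 13.7 and 13.1 TPM in wild-type and at 7.24 and 7.65 TPM in Smad3(RA/KP) cells. With TGF-β the differences of STX2 and RGS2 were 0.003 and 0.09. Those of VAMP8, VIPR1, RARRES3 and SEC14L2 were 0.70, 0.52, 0.29 and -0.57. These genes were likewise chosen after their values were seen.

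The 40 gene lists with at least 5 members tested were described by counts and medians beside those of all genes. No member of any list passed the threshold. Over the lists, 874 different genes were tested and 17 (1.95%) had an unadjusted p under 0.05, against 1.54% of all genes. List medians ran from -0.17 to 0.17, and from -0.17 to 0.20 with the GC trend removed. They are to be read against the median of all genes, 0.03, and counts of members without overlap against the 10.1% of all genes that were higher and the 8.78% that were lower. The medians were sensitive to which Smad3(RA/KP) library was used: for 22 of the 40 lists the sign without replicate 1 differed from that without replicate 2. Relative to the median of all genes under the same setting (0.12 without replicate 1 and -0.06 without replicate 2), 27 of the 40 lists changed sides.

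In the TGF-β pathway, the receptors, Smads and their regulators had a median of 0.09 over 21 genes, with 3 genes higher and 0 lower without overlap (14.3% higher, against 10.1% of all genes). The receptor ACVR2A, which binds activins, was at 0.528 and 0.611 TPM in wild-type and at 2.54 and 1.79 TPM in Smad3(RA/KP) cells, a difference of 1.00 ± 0.29 at low levels. With TGF-β ACVR2A went the other way without overlap, at 1.44 and 1.39 TPM against 0.914 and 0.461 TPM. Its difference of the line differences did not pass (adjusted p = 0.987). Ligands and their storage proteins had a median of -0.04 over 19 genes, and their member with the smallest p was GREM1, described above. The BMP antagonist NOG was below 1 TPM in each untreated library. Known TGF-β and Smad3 targets had a median of 0.02 over 41 genes, or 0.10 with the GC trend removed, with 3 higher and 4 lower without overlap (7.32% and 9.76%, against 10.1% and 8.78% of all genes). Of these, ADAM19, a metalloprotease, was at 8.9997 and 12.7 TPM in wild-type and at 15.3 and 21.2 TPM in Smad3(RA/KP) cells, and TAGLN, an actin-binding protein, at 18.4 and 18.9 TPM against 34.3 and 22.8 TPM. With TGF-β the differences of ADAM19 and TAGLN were -0.16 and -0.05. The target SMAD7, the inhibitory Smad, was at 15.5 and 14.6 TPM against 15.4 and 15.3 TPM. Its difference was 0.02 with a 95% interval of -0.40 to 0.45. SMAD7 was added after values were seen. BMP and ID targets had a median of 0.10 over 10 genes, with ID3 at 256 and 316 TPM against 296 and 189 TPM. That median was 0.26 without Smad3(RA/KP) replicate 2 and -0.17 without replicate 1.

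Genes of epithelial and mesenchymal states gave no called member. Transcription factors of epithelial-mesenchymal transition had the highest median, 0.17 over 10 genes, with 2 higher and 1 lower without overlap (against 10.1% and 8.78% of all genes). It was -0.12 without Smad3(RA/KP) replicate 1 and 0.25 without replicate 2, and with the GC trend removed integrins had the higher median (0.203 against 0.199). Both of those named by the smallest p had intervals that include 0. FOXC2 was at 3.54 and 4.02 TPM against 6.59 and 5.02 TPM, and SOX9 at 5.41 and 10.0 TPM against 10.1 and 10.2 TPM. Epithelial markers had a median of 0.03 over 18 genes, and E-cadherin (CDH1) was at 10.3 and 5.51 TPM against 7.48 and 6.84 TPM. The tight junction gene CLDN3 was at 5.33 and 4.82 TPM against 4.87 and 1.26 TPM. Mesenchymal markers had a median of 0.16 over 17 genes and collagens and matrix genes one of 0.16 over 35, with 5 and 6 members higher and 1 lower in each without overlap (29.4% and 17.1% higher, against 10.1% of all genes), SPARC being the lower one in both. SPARC thus lay apart from the rest of the lists that hold it. LUM, a collagen-binding proteoglycan, was at 2.62 and 0.724 TPM against 5.19 and 3.35 TPM. Proteases and their inhibitors had a median of 0.03 over 34 genes, and the matrix protease ADAMTS9 was at 0.668 and 0.347 TPM against 2.37 and 1.87 TPM, with a like difference of 1.07 with TGF-β. Claudins, cadherins and keratins had a median of 0.07 over 20 genes and integrins one of 0.12 over 13. The former median was 0.20 without Smad3(RA/KP) replicate 2 and -0.18 without replicate 1. The integrin median was -0.01 without Smad3(RA/KP) replicate 2, against -0.06 for all genes. Without replicate 1 it was 0.36, against 0.12 for all genes. In Smad3(RA/KP) replicate 2 ITGB1, the shared β1 subunit, was at 460 TPM, while it was at 234 to 264 TPM in the other 3.

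Regulators of small GTPases were examined because the study followed ARHGAP22, ARHGAP24 and ARHGAP27, GTPase-activating proteins that act on Rac1. ARHGAP22 was at 1.71 and 3.97 TPM in wild-type and at 1.05 and 2.48 TPM in Smad3(RA/KP) cells, a difference of -0.46 with a 95% interval of -1.38 to 0.46. ARHGAP24 was below the filter, at 2.05 and 1.39 TPM against 1.15 and 0.944 TPM. ARHGAP27 was at 20.4 and 21.7 TPM against 17.7 and 18.8 TPM, groups that did not overlap, with a difference of -0.19 and an interval of -0.81 to 0.42. All 3 had the higher mean in untreated wild-type cells, and both tested differences had intervals that include 0. Over the 24 ARHGAP genes tested, the median was 0.07, with 3 higher and 4 lower without overlap (12.5% and 16.7%, against 10.1% and 8.78% of all genes). The median was -0.10 without Smad3(RA/KP) replicate 2 and 0.15 without replicate 1. The smallest p was that of ARHGAP23, at 11.5 and 15.7 TPM against 21.3 and 17.7 TPM, and ARHGAP10 was next, at 4.71 and 4.63 TPM against 5.50 and 7.79 TPM.

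Exchange factors that activate Rac had a median of -0.02 over 22 genes, with differences between -0.23 and 0.24, and 1 higher and 0 lower without overlap. ARHGEF4 and DOCK4, with the smallest p among them, had intervals of -0.96 to 0.49 and -0.46 to 0.94. Genes of the lamellipodium, the actin sheet at the cell's leading edge, had a median of 0.03 over 33 genes, with ARPC5 of the Arp2/3 complex at 180 and 153 TPM against 220 and 208 TPM. NCKAP1 of the WAVE complex was at 19.8 TPM in Smad3(RA/KP) replicate 2 and at 9.40 to 10.0 TPM elsewhere. Stress fiber and contractile genes had a median of 0.03 over 31 genes and YAP and SRF targets one of -0.02 over 21, with 4 of the latter lower without overlap (against 8.78% of all genes). CTGF, a matricellular target of YAP, was at 14.3 and 13.3 TPM against 8.52 and 12.8 TPM. Without Smad3(RA/KP) replicate 2 the medians of the exchange factors, lamellipodium, stress fiber, and YAP and SRF lists were -0.19, -0.09, -0.12 and -0.23, against -0.06 for all genes. Without replicate 1 they were 0.19, 0.13, 0.22 and 0.20, against 0.12 for all genes. The sign of these medians thus depended on which Smad3(RA/KP) library was used.

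Among growth and stress genes, p53 targets had a median of -0.16 over 21 genes, -0.11 with the GC trend removed. It was -0.26 without Smad3(RA/KP) replicate 2 and -0.05 without replicate 1, against -0.06 and 0.12 for all genes. Of the 21 genes, 6 were lower without overlap (28.6%, against 8.78%) and 2 were higher. MDM2, the ubiquitin ligase of p53, was at 6.30 and 6.15 TPM in wild-type and at 3.92 and 3.59 TPM in Smad3(RA/KP) cells, and FAS was described above. The cell cycle inhibitor CDKN1A, named after its value was seen, was at 139 and 127 TPM against 112 and 85.9 TPM. With TGF-β the median of the same list was -0.01, and MDM2 was at 3.63 and 2.84 TPM against 3.68 and 2.71 TPM. DNA replication genes had a median of -0.10 over 31 genes, with 6 lower and 0 higher without overlap (19.4% lower), LIG1 being at 80.0 and 70.6 TPM against 63.7 and 39.5 TPM. Mitosis genes had a median of 0.09 over 30 genes, which was -0.07 without Smad3(RA/KP) replicate 2, against -0.06 for all genes. Without replicate 1 it was 0.24, against 0.12 for all genes. Cytosolic ribosomal proteins had a median of -0.08 over 74 genes. RPS28 of the small subunit was at 772 and 1144 TPM against 706 and 584 TPM.

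Stress and metabolic lists had medians close to that of all genes, several of which moved with the library used. NRF2 targets had a median of -0.04 over 32 genes, with HMOX1, the haem oxygenase, at 165 and 177 TPM against 127 and 128 TPM, a difference of -0.42 ± 0.19. Targets of the aryl hydrocarbon receptor (8 genes), enzymes of xenobiotic metabolism (20 genes), cholesterol synthesis (28 genes), amino acid and endoplasmic reticulum stress (28 genes), heat shock (16 genes), and hypoxia and glycolysis (29 genes) had medians of 0.03, 0.05, 0.05, 0.00, -0.04 and -0.03. In cholesterol synthesis 7 genes were higher and 2 lower without overlap (against 10.1% of all genes higher), among them the squalene epoxidase SQLE, at 37.9 and 41.6 TPM against 46.8 and 48.9 TPM. Without Smad3(RA/KP) replicate 2 the heat shock median was -0.36, that of amino acid and endoplasmic reticulum stress -0.27 and that of xenobiotic metabolism 0.31. Without replicate 1 the same medians were 0.38, 0.33 and -0.395. CHAC1, an enzyme that degrades glutathione and is induced by amino acid stress, was at 15.6 and 17.3 TPM against 9.78 and 11.04 TPM.

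Immune lists had medians above that of all genes. Interferon-stimulated genes had a median of 0.14 over 24 genes, with 7 higher and 0 lower without overlap (29.2% higher, against 10.1%). Their largest difference was that of IFITM1, a membrane protein that restricts viruses, at 3.46 and 0 TPM against 6.12 and 8.28 TPM, which rests on 1 wild-type library listed at 0. IFITM2 was at 127 and 145 TPM against 191 and 155 TPM. Genes of the acute phase, coagulation and complement had a median of 0.16 over 19 genes, with 7 higher and 0 lower without overlap (36.8%), among them the complement protease C1R, at 57.7 and 60.5 TPM against 72.3 and 75.4 TPM. With TGF-β the median of that list was -0.10, and that of the interferon list 0.05. Cytokines and chemokines had a median of 0.12 over 21 genes, which was 0.00 without Smad3(RA/KP) replicate 2, against -0.06 for all genes. Without replicate 1 it was 0.37, against 0.12 for all genes. The neutrophil chemokine CXCL1 was at 4.51 and 3.48 TPM against 6.96 and 5.87 TPM. Immediate early genes (21 tested) and antigen presentation genes (16 tested) had medians of 0.13 and 0.07.

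Lung and endoderm genes had a median of -0.09 over 16 genes. It was 0.08 without Smad3(RA/KP) replicate 2 and -0.30 without replicate 1. The endodermal factor SOX17 was at 1.92 and 1.63 TPM against 0.544 and 0.518 TPM. The mucin MUC5B was at 1.39 and 0.576 TPM against 5.95 and 1.83 TPM. HOX genes had a median of 0.12 over 27 genes, Notch and WNT genes one of -0.02 over 29, semaphorins and ephrins one of -0.03 over 30, and EGF family genes and their receptors one of 0.05 over 23. Imprinted genes (15 tested) had a median of -0.01. Clustered protocadherins are adhesion proteins whose promoters are chosen cell by cell and can differ between clones. They had the lowest median, -0.17 over 11 genes, with 4 lower and 0 higher without overlap (36.4% lower, against 8.78% of all genes). That rank did not hold with the GC trend removed (-0.14, against -0.17 for markers of other cell types). Without Smad3(RA/KP) replicate 2 the median was -0.15, and that of heat shock genes was lower (-0.36). Without replicate 1 it was -0.35, and that of xenobiotic enzymes was lower (-0.395). Records such as PCDHA12 overlap others of the family, and the counts were not repeated with these summed. PCDHGA7 was at 2.13 and 1.96 TPM against 0.532 and 0.869 TPM, but it overlaps other protocadherin records on its strand, and with these summed its difference went from -0.85 to -0.16. The median of this list with TGF-β was 0.29. The 7 tested markers of other cell types had a median of -0.14. Of the cancer-testis antigens, PRAME was at 100.0 and 114 TPM against 92.4 and 104 TPM and XAGE1B at 102 and 137 TPM against 87.6 and 115 TPM, both with overlap.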

How the data were processed

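Gene tables from 8 poly(A) RNA libraries of both lines were analysed, 4 of them untreated. Reads had been aligned by the authors to GRCh38 (HISAT2 2.1.0) and quantified with StringTie 2.0.4 without de novo assembly (versions from the submitters' processing notes), and deposited 1 table per library. The gene annotation is not given in the sources used. The deposited tables hold base coverage, a signal, used for depth only. They hold FPKM, which the authors scaled by length and mapped fragments, used for depth and as an alternative. The authors' TPM, scaled to a total of 1000000 per library, was the main measure. Read counts are not used here, and no counting intervals are given. Records of 1 gene name were summed.

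limma 3.58.1 in R 4.3.3 was run on log2(TPM + 1) where the mean over the 8 libraries reached 1 TPM, with 4 group means, no block, a variance trend, and adjustment by Benjamini-Hochberg at 0.05 (residual degrees of freedom 4, prior 4.80). The script was tested on simulated data. GC content was that of GENCODE transcripts, known for 94.3% of genes. The same replicate numbers are not stated to pair the lines.

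Groups followed the sample titles. The gene lists and members were chosen with earlier results of these data known. Named genes were SMAD3, 3 ARHGAP genes, up to 15 per direction that passed with a mean of at least 5 TPM also after summing overlapping records (0 qualified), up to 4 list members that passed or otherwise the 2 with the smallest p, not all of which are printed, and genes at 0 in 1 line and at least 5 TPM in the other. Others are named as chosen after their values were seen. Alternatives were other pseudocounts, filters, units and scalings, a replicate block, GC removal, summed overlapping records and leaving out libraries.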

Additional observations from a re-analysis of the deposited data

Results flagged for a closer look

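For 2 noncoding records the line difference depended on TGF-β by the interaction test of the fit (2 of 13141 genes, 0.0152%). CTB-178M22.2 was listed at 0 in both untreated wild-type libraries and was at 3.55 and 6.14 TPM in untreated Smad3(RA/KP) cells, while with TGF-β it was at 3.01 and 2.17 TPM in wild-type and listed at 0 in both Smad3(RA/KP) libraries. Its difference of line differences was 4.345 on the log2(TPM + 1) scale (adjusted p = 0.0360). LOC102724049 was listed at 0 in both untreated wild-type libraries and was at 2.61 and 2.90 TPM in untreated Smad3(RA/KP) cells, and with TGF-β it was at 2.67 and 3.22 TPM in wild-type and listed at 0 in both Smad3(RA/KP) libraries. Its difference of line differences was 3.884 (adjusted p = 0.0360). LOC102724049 overlaps SGMS2 on the same strand, and with both summed its value did not pass. Neither untreated difference passed by itself (adjusted p = 0.1004 for CTB-178M22.2 and 0.1396 for LOC102724049).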

How the results depend on the processing

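With 2 libraries per group, the 95% interval of an untreated difference extended 0.55 to each side (log2, median of genes with at least 5 TPM). The count of genes that passed, 1 in the report, depended on the settings. It was 2 with a pseudocount of 0.1 TPM, 2 with quantile normalization, 3 without the variance trend and 14 without a filter on low values. It was 0 with a pseudocount of 5 TPM, with FPKM, with the untreated libraries alone, with the GC trend removed and with overlapping records summed. Leaving out 1 library gave 0 to 4 genes: 4 without Smad3(RA/KP) replicate 2, none of them SEPT5, and 2 without replicate 1. For the treated comparison (1 gene, SPARC) leaving out 1 library gave 0 to 2. With the replicate number as a block, 2 genes passed untreated, SEPT5 and SPARC, so the count of list members that passed went from 0 to 1. Whether the numbers pair the libraries is not stated, and deviations of same-numbered libraries correlated at 0.0484 to 0.332. With the block, 329 of 13141 genes had an unadjusted p under 0.05 in the untreated limma comparison, against 203 without it. With the block and GC removal there were 452. The block changed no other call among the genes named. The mean of both line differences, added after the data were seen, gave 1 gene. The 2 records whose line difference depended on TGF-β became 1 with a pseudocount of 0.1 TPM or with overlapping records summed, 7 without a filter, and 0 with a pseudocount of 5 TPM, a mean TPM of at least 5, FPKM or GC removal with or without the block, and leaving out 1 library gave 0 to 3. SEPT5 passed under 9 of 21 alternatives and SPARC under 1 of 21, both with the same direction in all 21. Of 128 genes followed, 25 changed sign under at least 1 alternative, none of which passed under any. The causes were not tested.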
